A study of Mus musculus with 5 samples.

Results

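The comparison is between whole-lung RNA of mice that received PM10, the inhalable fraction of airborne particulate matter, and whole-lung RNA of untreated control mice. It was defined by its labels: 2 of the 5 libraries of the series, the PM10 library and the control library, each the only library of its group. All groups are female wild-type BALB/c mice. The PM10 group was given particles into the nose 4 times over 2 weeks with lung collection 2 days after the final challenge. The control group carries the treatment label None, and vehicle is not mentioned for it. The other 3 groups, used here for scaling and as values set side by side, all had PM10 together with ovalbumin (OVA), an egg-white allergen injected first and dripped into the nose later. They are PM10/OVA alone, PM10/OVA/CPX with injections of a chitinase-1 inhibitor (CPX), and PM10/OVA/Dex with injections of dexamethasone, a synthetic glucocorticoid. Their values are always given in that order. The sources used here do not give age, dose, the composition of the particles or whether a library is 1 animal or a pool.

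Inhaled particles that pass the nose settle on the airways and alveoli, where resident macrophages engulf them and the lining epithelium meets them directly. Both cell types can release chemokines, which recruit monocytes and neutrophils from blood, and acute-phase proteins, which bind microbial products and iron. A separate alarm, the interferon response, starts when sensors of nucleic acids or surface receptors lead to the release of interferons. These act through factors such as Stat2 and Irf9 to switch on antiviral genes. Recruited monocytes mature into macrophages in the tissue, and resident macrophages can also divide there.

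Promoter sequences of 8 genes that were higher in the PM10 library are shown first, because interferon-stimulated, NF-kB-dependent and mitosis genes are textbook targets of factors that bind short DNA motifs. No motif is shown for the other groups of higher genes, such as macrophage genes. The sequences come from RefSeq (build GRCm38.p6) and run from 160 bases before the annotated start to 9 bases after it. They were picked after the matches were seen, so they illustrate the motifs and are no evidence for them. Capitals mark the matches. In the interferon-stimulated genes Isg15 (chr4:156200809-156200978, minus strand), Ifit3 (chr19:34583369-34583538, plus strand) and Oas3 (chr5:120777650-120777819, minus strand) they mark GAAANNGAA, the core of the interferon-stimulated response element. Both strands were searched, and neighbouring matches in Isg15 and Oas3 overlap. In the neutrophil chemokines Cxcl1 (chr5:90891085-90891254, plus strand), Cxcl2 (chr5:90903739-90903908, plus strand) and Cxcl3 (chr5:90785941-90786110, plus strand) they mark GGANNTTCC, the kB motif bound by NF-kB. In the mitosis genes Ccnb1 (chr13:100786477-100786646, minus strand) and Cdc20 (chr4:118437334-118437503, minus strand) they mark CCAAT, the box bound by the factor NF-Y.
Isg15: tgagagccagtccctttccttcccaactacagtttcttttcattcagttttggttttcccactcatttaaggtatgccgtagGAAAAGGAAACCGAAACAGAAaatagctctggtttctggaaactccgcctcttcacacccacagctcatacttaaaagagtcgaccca
Ifit3: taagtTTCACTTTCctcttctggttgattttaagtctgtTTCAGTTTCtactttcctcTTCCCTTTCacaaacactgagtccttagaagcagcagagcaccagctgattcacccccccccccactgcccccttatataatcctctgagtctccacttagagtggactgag
Oas3: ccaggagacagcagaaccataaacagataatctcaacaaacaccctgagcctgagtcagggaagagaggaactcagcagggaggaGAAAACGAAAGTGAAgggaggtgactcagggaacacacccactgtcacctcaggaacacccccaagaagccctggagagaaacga
Cxcl1: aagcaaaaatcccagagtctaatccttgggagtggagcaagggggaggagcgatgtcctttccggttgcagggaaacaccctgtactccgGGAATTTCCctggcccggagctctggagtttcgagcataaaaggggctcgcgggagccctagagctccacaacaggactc
Cxcl2: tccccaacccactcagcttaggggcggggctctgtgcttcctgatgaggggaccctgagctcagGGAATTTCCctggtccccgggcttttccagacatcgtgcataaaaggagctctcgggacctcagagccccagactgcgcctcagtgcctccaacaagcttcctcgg
Cxcl3: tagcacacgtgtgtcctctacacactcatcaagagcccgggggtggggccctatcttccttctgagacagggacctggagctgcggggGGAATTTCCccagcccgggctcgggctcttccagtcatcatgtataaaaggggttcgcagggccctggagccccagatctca
Ccnb1: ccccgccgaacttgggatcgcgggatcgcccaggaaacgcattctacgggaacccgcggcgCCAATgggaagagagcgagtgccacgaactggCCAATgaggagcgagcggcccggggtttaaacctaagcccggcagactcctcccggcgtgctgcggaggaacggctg
Cdc20: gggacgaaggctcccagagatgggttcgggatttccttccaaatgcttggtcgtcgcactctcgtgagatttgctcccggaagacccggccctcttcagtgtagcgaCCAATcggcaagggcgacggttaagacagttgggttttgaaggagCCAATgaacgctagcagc

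Promoter windows from 250 bases before to 50 bases after the start were searched on both strands for all measured genes with a RefSeq entry, 11308 genes with 14375 windows. The interferon core was in 7.44% of these windows. It was in 57.1% of the 35 windows of the 30 matched antiviral genes and in 83.3% of the 12 windows of the 11 matched interferon-induced GTPases. The window of Irf7, the gene with the largest difference in the interferon lists, held none by these letters, which says nothing of what binds there. The kB motif was in 4.63% of all windows and in 37.5% of the 8 windows of the neutrophil-attracting CXC chemokines and receptors. It was in as large a share of lists that were not higher, such as 40.0% of the 5 windows of 2 nerve genes. The CCAAT box was in 36.8% of all windows, 82.4% of the 17 windows of mitosis genes and 70.0% of the 20 windows of DNA replication genes. It was as frequent in lists with no higher gene, at 80.0% for endoplasmic reticulum stress genes, 71.4% for cell cycle inhibitors and 70.0% for smooth muscle genes. An E2F motif, TTTGGCGC, was in 0.883% of all windows and 25.0% of those of replication genes, and in 0 of those of mitosis genes. A match is a description of the letters, not a shown binding site.

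Levels are in CPM, a gene's counts relative to the size of its library, which was adjusted by trimmed-mean factors. The 14305 of 23183 listed genes whose average level across all 5 libraries reached 1 CPM are called measured. Differences are PM10 minus control on log2(CPM + 1), which understates those of low genes, and a gene counted as higher or lower at 2-fold on that scale. By this rule 529 measured genes were higher in PM10 (3.70%) and 292 were lower (2.04%), while 12315 (86.1%) lay within 1.5-fold. At 4-fold the counts were 99 and 64, and at 8-fold 25 and 12. Control was the lowest of the 5 libraries for 408 of the 529 higher genes. PM10 was the highest for 339, where it was the highest for 18.3% of all measured genes. Of the 292 lower genes control was the highest of the 5 for 274, while PM10 was the lowest for 62. For most lower genes control was above all the other libraries. The rule favours such places, since it picks genes by their control and PM10 values. These counts are therefore a description only. The median difference over all measured genes was -0.00. By the GENCODE annotation of GRCm38, 13833 of the 14305 measured genes were protein-coding. About the same share held for the higher genes (513 of 529) and the lower genes (282 of 292). Folds are ratios of CPM, printed with an exact 95% interval in parentheses that covers counting error only. With 1 library per group there is no replicate, no test and no p-value, and each difference is between these 2 libraries.

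**Figure D1:**
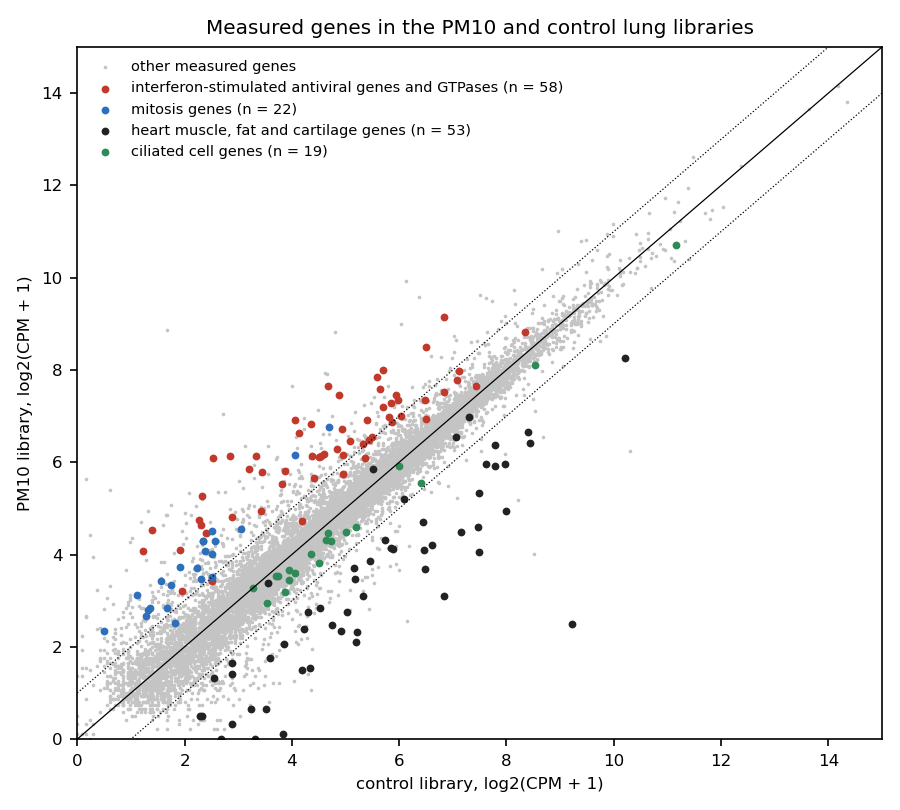
Level of each measured gene in the control library (x axis) and in the PM10 library (y axis), both as log2(CPM + 1). The solid line marks equal levels and the dotted lines a 2-fold difference. Interferon-stimulated genes and mitosis genes lie above the solid line, heart muscle, fat and cartilage genes lie below it with 1 exception, and ciliated cell genes lie just below it, with Spag17 level.

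The control library had 16929068 counts and the PM10 library 12038105, against a range of 11993222 to 16929068 over the 5. A single count is worth 0.0577 CPM in control and 0.0828 CPM in PM10. The defining genes of lung tissue were abundant in both libraries: Sftpc, the surfactant gene of alveolar type 2 cells, was at 12728 CPM in control and 12987 CPM in PM10, and Ager, of alveolar type 1 cells, at 1585 CPM in control and 1586 CPM in PM10. Genes of some tissues that border the lung did not stay level. Of 65 measured genes of heart muscle, fat, cartilage, skeletal muscle, thymus and nerve, 51 were at least 2-fold lower in PM10 and 0 higher. Over all measured genes 2.04% were lower. Most of the 51 were genes of heart muscle (23 of 24), fat (16 of 18) and cartilage (9 of 11). Skeletal muscle had 1 of 4 lower, thymus 0 of 2 and nerve 2 of 6. The summed level of the 24 heart muscle genes was 4197 CPM in control and 952 CPM in PM10, that of the 18 fat genes 1422 and 385 CPM, and that of the 11 cartilage genes 205 and 97.0 CPM. The part of dissected border tissue in the lower genes was not tested. In bulk tissue, fewer cells of a type and less RNA per cell cannot be told apart.

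The genes with the largest differences upwards, beginning with Saa3, belong to several systems. Saa3, an acute-phase protein made by macrophages and epithelium (GRCm38 chromosome 7, 46711998 to 46715700), was at 2.19 CPM in control and 463 CPM in PM10, 211-fold (154 to 299) higher. Irg1, annotated as Acod1, which makes itaconate in activated macrophages (chromosome 14, 103046977 to 103056573), was at 0.115 CPM in control and 49.0 CPM in PM10 on 592 counts in PM10 against 2 in control, 425-fold (117 to 3519.8) higher. Ly6i, a surface protein of the Ly6 family found on monocytes, was at 0.519 CPM in control and 41.3 CPM in PM10, 79.5-fold (41.5 to 175) higher, but its close relatives make the assignment of reads to it uncertain. The next in order were Mmp12, Cxcl3, Irf7, Lcn2, Gpnmb, Cxcl5, Ccl8, Slfn4, Cxcl10, Slc26a4, Timp1 and Retnla, each described with its group. Saa3 and Cxcl5 were higher still in PM10/OVA (694 and 73.4 CPM), whereas Ly6i and Irf7 were lower there (4.98 and 42.6 CPM) than in PM10.

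The interferon response is taken in the order of signalling. Transcripts of interferons themselves were at or near 0: Ifnb1, Ifna4, Ifnk, Ifnl2 and Ifnl3 had 0 counts in all 5 libraries, and Ifng had 6 counts in PM10 against 3 in control. At these depths 0 counts allow up to 0.173 CPM in control and 0.249 CPM in PM10 (the floor of 3 counts). The receptor genes were measured and differed little. Ifnar1 and Ifnar2, the chains of the type I receptor, were at 108 and 123 CPM and at 68.6 and 94.7 CPM in control and PM10 respectively. Ifngr1 and Ifngr2, the chains of the interferon-gamma receptor, were 1.14-fold (1.08 to 1.21) and 1.28-fold (1.17 to 1.41) higher, and Ifnlr1, the chain specific to interferon lambda, was 1.27-fold (1.04 to 1.56) lower. None of the 6 measured members reached 2-fold, where 3.70% of all measured genes were higher.

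Of 22 sensors and signalling genes, 7 were at least 2-fold higher and 0 lower (median 0.86). Irf7, the factor that amplifies interferon production (chromosome 7, 141262706 to 141266481), was at 26.9 CPM in control and 452 CPM in PM10, against 42.6, 43.5 and 23.9 CPM in the 3 groups with OVA. The PM10 library stood alone as the high value, 16.8-fold (15.3 to 18.5) above control. Tlr7 and Tlr9, endosomal receptors for RNA and DNA, were 4.36-fold (3.75 to 5.09) and 3.45-fold (2.65 to 4.52) higher. Dhx58, a regulator of the cytosolic RNA sensors, was 4.33-fold (3.63 to 5.17) higher. Stat2, which carries the signal to the nucleus, was 2.67-fold (2.45 to 2.91) higher, and its partner Irf9 2.04-fold (1.88 to 2.22). The RNA sensors Ddx58 and Ifih1 were just short of the rule, at 75.5 and 151 CPM and at 64.3 and 125 CPM in control and PM10 respectively.

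All 40 interferon-stimulated antiviral genes on the list were measured and above 0 in difference, with 35 at least 2-fold higher and a median of 1.97. The PM10 library was the highest of the 5 for all 40, where it was the highest for 18.3% of all measured genes. Oas3, which makes the second messenger that activates RNase L, was at 6.17 CPM in control and 69.4 CPM in PM10 and at 15.5, 8.22 and 4.46 CPM in the other 3 groups, 11.3-fold (9.19 to 13.9) above control. Mx1, a GTPase that blocks viral ribonucleoproteins, was at 1.61 CPM in control and 22.3 CPM in PM10 and at 4.98, 6.47 and 2.86 CPM in the other 3, 13.8-fold (9.34 to 21.2) above control. Isg15, a ubiquitin-like modifier, was at 15.6 CPM in control and 119 CPM in PM10 and at 29.3, 21.1 and 8.75 CPM in the other 3, 7.62-fold (6.69 to 8.71) above control. In each of these 3 genes the PM10 library was the single high value of the 5. The list medians against the same control library were 0.35, 0.29 and -0.33 in the 3 groups with OVA. Slfn4, a myeloid member of the Schlafen family, was 14.02-fold (11.2 to 17.8) higher, Ifi44 8.13-fold (7.33 to 9.04), the oligoadenylate synthetase relative Oasl1 9.24-fold (7.17 to 12.1) and Oas1g 12.1-fold (7.80 to 19.5). Slfn5, on the same list, differed least, at 323 CPM in control and 454 CPM in PM10. Oas1a and Oas1g, Ifit3 and Ifit3b, and the Slfn and Phf11 genes are close copies, so how their reads were divided is uncertain.

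Interferon-induced GTPases, which attack the vacuoles of intracellular microbes, were above control for all 18 members, 11 by at least 2-fold (median 1.13). Tgtp1 was 5.81-fold (4.21 to 8.14) higher, Gbp6 3.52-fold (3.10 to 4.002) and Irgm1, a regulator of the family, 2.94-fold (2.68 to 3.22). Iigp1 was at 56.8 CPM in control and 154 CPM in PM10 and at 108, 99.2 and 32.1 CPM in the other 3 groups, so the PM10/OVA and PM10/OVA/CPX libraries lay between control and PM10. Tgtp1 and Tgtp2 are near-identical neighbours, and the fold of Tgtp1 may not be separate from Tgtp2, which was at 17.2 CPM in control and 25.3 CPM in PM10.

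Antigen presentation by MHC class I showed the same direction with smaller folds: 8 of 17 measured genes were at least 2-fold higher, 0 lower, and the median was 0.92. Of the 17, H2-Q7 had 0 counts in both libraries, and the H2-Q genes are close copies. Tap1, which carries peptides into the endoplasmic reticulum, was 2.46-fold (2.26 to 2.69) higher, and the heavy chains H2-K1 and H2-T23 were 2.28-fold (2.20 to 2.37) and 2.26-fold (2.17 to 2.36) higher. B2m, the shared light chain, was at 942 CPM in control and 1982 CPM in PM10, 2.10-fold (2.06 to 2.15) higher. Nlrc5, the transactivator of these genes, was 2.30-fold (1.96 to 2.71) higher, and Psmb8, an immunoproteasome subunit, 2.13-fold (1.99 to 2.29). Of 12 MHC class II genes 1 reached 2-fold and 0 were lower, with a median of 0.81 close to that of class I, and several lay just under 2-fold. The summed level was 1897 CPM in control and 3884 CPM in PM10 for class II, and 3568 and 7038 CPM for class I. The gene past 2-fold was the invariant-chain protease Ctss (195 in control and 750.2 CPM in PM10), while the other members ran from -0.24 for H2-Ob to 0.95 for H2-Ab1.

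**Figure D2:**
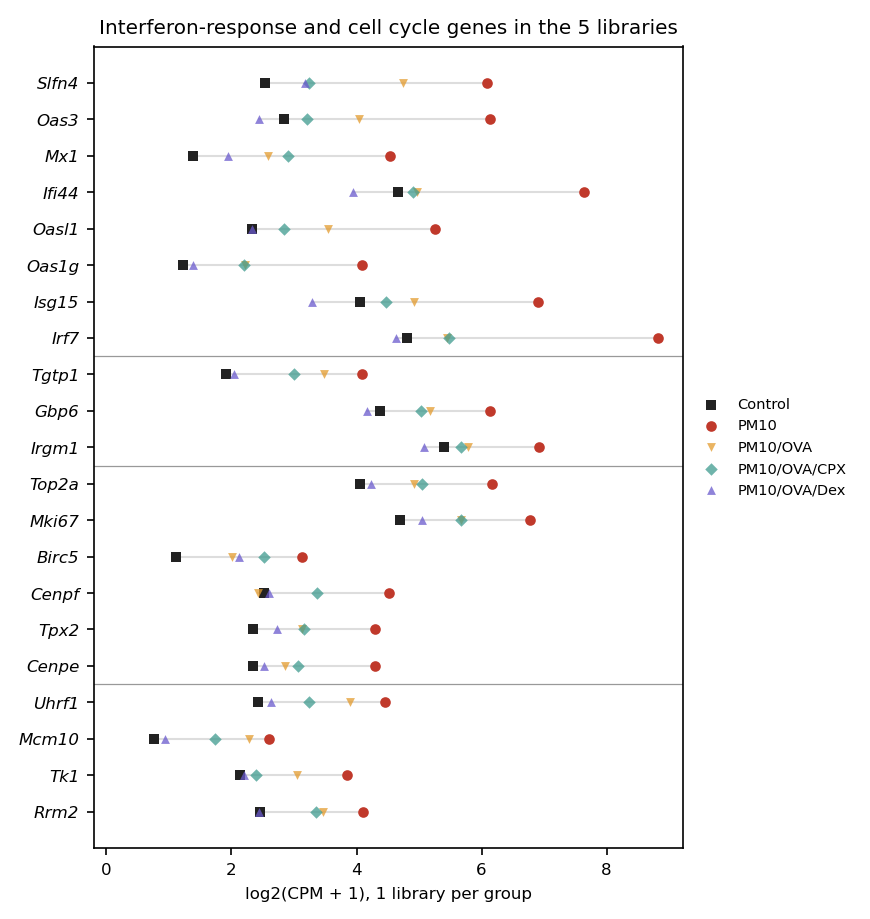
Levels of interferon-response genes (Slfn4 to Irf7 and the GTPases Tgtp1 to Irgm1), mitosis genes (Top2a to Cenpe) and replication genes (Uhrf1 to Rrm2) as log2(CPM + 1) in each of the 5 libraries, 1 point per library. The PM10 point (red circle) is the rightmost in every row shown, and control (black square) lies among or near the other libraries.

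Acute-phase genes encode proteins secreted in inflammation. Of 14 measured, 9 were at least 2-fold higher and 0 lower (median 1.603). Lcn2, which withholds iron from bacteria, was at 68.6 CPM in control and 980.1 CPM in PM10 and at 1390.4, 716 and 462 CPM in the other 3 groups, 14.3-fold (13.5 to 15.2) above control. Serpina3n, a protease inhibitor, and Lrg1, a glycoprotein of inflamed vessels, were 6.94-fold (6.14 to 7.88) and 4.92-fold (4.43 to 5.48) higher, both with their highest level in PM10/OVA (311 and 218 CPM). Chil1, a chitinase relative that lacks catalytic activity, was at 499 CPM in control and 2065 CPM in PM10, 4.14-fold (4.04 to 4.24) higher. Orm2 and Saa1 rest on few counts: 45 counts against 1 for Orm2, 64.7-fold (11.0 to 2609.7), and 23 counts against 1 for Saa1, 33.0-fold (5.37 to 1361). Saa1 and Saa2 are near-identical, and so are the Orm genes, so single folds among them are uncertain. Hp, haptoglobin, was level at 606 CPM in control and 646 CPM in PM10.

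Complement proteins tag particles and microbes for uptake. Of 24 measured, 12 were at least 2-fold higher and 1 lower (median 0.89). Cfb, the protease of the alternative pathway and an interferon-responsive gene, was at 82.2 CPM in control and 759.5 CPM in PM10 and at 389, 197 and 186 CPM in the other 3 groups, with the PM10 library the highest, 9.24-fold (8.74 to 9.77) above control. C3ar1, the receptor for the C3a fragment, was 6.98-fold (5.61 to 8.76) higher. C1qa, C1qb and C1qc, the chains of C1q that macrophages make, were 3.83-fold (3.49 to 4.21), 3.91-fold (3.50 to 4.38) and 4.17-fold (3.72 to 4.69) higher. C3 itself was at 672 CPM in control and 1782 CPM in PM10, 2.65-fold (2.59 to 2.71) higher. The gene that was lower, Cfd, is also the fat cell gene adipsin, and it was 6.63-fold (5.83 to 7.57) lower.

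Neutrophil-attracting CXC chemokines were close to the floor in control. Cxcl3 had 245 counts in PM10 and 3 in control, 117-fold (39.7 to 573) higher. Cxcl5, made by epithelium, had 174 and 4 counts, 62.5-fold (24.0 to 232) higher. Cxcl2 had 63 and 2 counts, 45.3-fold (12.0 to 382) higher, and Cxcl1 80 and 10 counts, 11.5-fold (5.94 to 24.9) higher. For all 4 the PM10/OVA library held more than the PM10 library: 57.7, 73.4, 18.5 and 23.8 CPM against 20.3, 14.4, 5.22 and 6.63 CPM. Both comparisons use the same control library. Their receptor Cxcr2 did not reach 2-fold on the log2(CPM + 1) scale, at 10.5 CPM in control and 19.9 CPM in PM10, nor did Cxcr1, at 1.15 CPM in control and 2.73 CPM in PM10. Cxcl15, the abundant lung chemokine, was at 939 CPM in control and 1421 CPM in PM10. In all, 4 of 9 members were at least 2-fold higher and 0 lower (median 0.86).

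The ligands of Cxcr3, which draw activated T cells and are induced by interferon, were all higher: Cxcl10 with 304 counts against 22 (19.9-fold, 12.9 to 32.2), Cxcl9 with 222 counts against 17 (18.8-fold, 11.5 to 32.8) and Cxcl11 with 65 counts against 2 (46.7-fold, 12.4 to 394). Their receptor Cxcr3 was at 1.67 CPM in control and 5.22 CPM in PM10, 3.12-fold (1.98 to 5.03) higher. A mean of at least 5 CPM left 2 of these 4. All 4 were at their highest of the 5 libraries in PM10, with Cxcl10 at 14.3, 3.19 and 0.420 CPM in the other 3 groups.

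Among CC chemokines of monocytes and their receptors, 11 of 12 were at least 2-fold higher and 0 lower (median 1.80), and 7 with a pseudocount of 5. Ccl8 was at 1.499 CPM in control and 29.9 CPM in PM10, 19.9-fold (13.4 to 31.0) higher, and higher again in the 3 groups with OVA (69.3, 120.0 and 94.8 CPM). Ccl2, Ccl7 and Ccl12, ligands of Ccr2, were 7.45-fold (4.33 to 13.6), 8.83-fold (3.94 to 23.3) and 6.98-fold (3.05 to 18.7) higher, on 83, 43 and 34 counts in PM10. Their receptor Ccr2, the marker of inflammatory monocytes, was at 48.8 CPM in control and 99.98 CPM in PM10, 2.05-fold (1.88 to 2.24) higher. Ccl3 and Ccl4, chemokines of activated macrophages, were 5.95-fold (3.66 to 10.1) and 16.0-fold (7.77 to 38.2) higher. The macrophage chemokines Ccl6 and Ccl9 were at 212 and 726 CPM and at 21.6 and 139.7 CPM in control and PM10 respectively, 3.43-fold (3.30 to 3.56) and 6.48-fold (5.79 to 7.26) higher, and Ccr1, a receptor they bind, was 3.11-fold (2.59 to 3.74) higher. Ccl5, the member that did not reach 2-fold, was at 26.2 CPM in control and 37.7 CPM in PM10.

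Chemokines of allergic inflammation were mixed, with 3 of 6 measured members at least 2-fold higher and 0 lower, or 1 higher with a pseudocount of 5. Ccl11, eotaxin, was level at 4.90 CPM in control and 4.97 CPM in PM10, against 27.3, 58.0 and 25.5 CPM in the other 3 groups. Ccl24, another eotaxin, was at 2.25 CPM in control and 0.994 CPM in PM10 and the eotaxin receptor Ccr3 at 7.50 CPM in control and 6.38 CPM in PM10. Ccl17 and Ccl22, which dendritic cells make to attract Ccr4-bearing T cells, were 4.23-fold (2.48 to 7.55) and 4.99-fold (3.46 to 7.36) higher, and Ccr4 2.99-fold (1.81 to 5.09). Of the lymphoid tissue chemokines only Cxcl13, the attractant of B cells, reached 2-fold among 10 measured members: it was at 9.63 CPM in control and 52.4 CPM in PM10, 5.45-fold (4.59 to 6.50) higher, while its receptor Cxcr5 was at 15.3 CPM in control and 13.2 CPM in PM10.

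**Figure D3:**
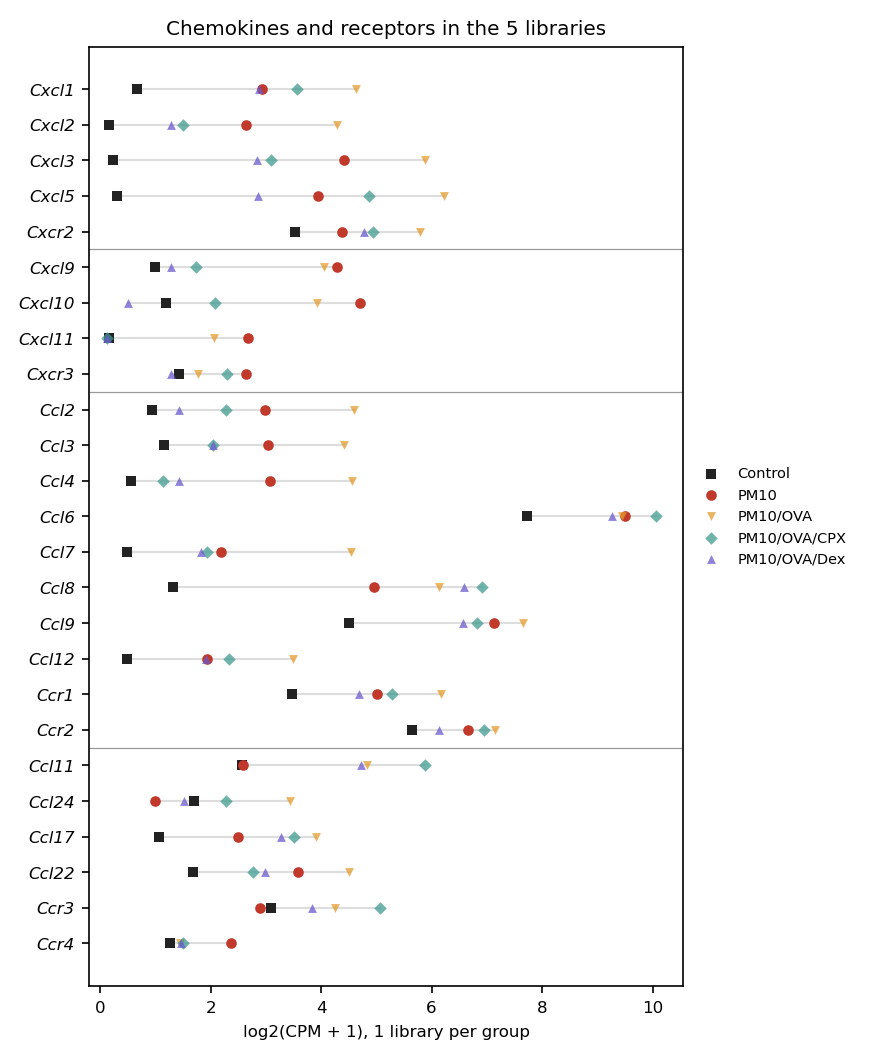
Levels of chemokines and their receptors as log2(CPM + 1) in each of the 5 libraries, 1 point per library, in blocks for the Cxcr2 ligands, the Cxcr3 ligands, the monocyte CC chemokines and the allergic chemokines. The Cxcr3 ligands are highest in PM10 (red circle), the Cxcr2 ligands are highest in PM10/OVA, and Ccl11 is as low in PM10 as in control.

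Cytokine genes followed in part. In the interleukin-1 family 5 of 13 were at least 2-fold higher and 0 lower (median 0.84), and 3 with a pseudocount of 5. Il1b was at 16.5 CPM in control and 54.4 CPM in PM10, 3.29-fold (2.86 to 3.79) higher, and its soluble antagonist Il1rn at 7.73 CPM in control and 80.9 CPM in PM10, 10.5-fold (8.74 to 12.6) higher. The decoy receptor Il1r2 was 6.66-fold (3.43 to 14.2) higher, while the signalling receptor Il1r1 was at 39.6 CPM in control and 43.4 CPM in PM10. Il18bp, which neutralises interleukin-18, was 3.36-fold (2.73 to 4.15) higher against 1.93-fold (1.59 to 2.34) for Il18. Il33, an epithelial alarmin, was at 74.0 CPM in control and 133 CPM in PM10. Tnf had 52 counts against 6, 12.5-fold (5.35 to 35.5) higher, and the receptor Tnfrsf1b was 2.57-fold (2.38 to 2.78) higher. Csf2ra and Csf2rb, the chains of the GM-CSF receptor on alveolar macrophages, were 2.76-fold (2.43 to 3.13) and 3.31-fold (3.06 to 3.58) higher, whereas Csf2, the ligand, was at 2.13 CPM in control and 1.49 CPM in PM10. Il6 had 10 counts against 2, and Socs3, the inhibitor that signalling by its receptor induces, was at 25.9 CPM in control and 53.0 CPM in PM10. Il12b, the subunit shared by interleukin-12 and interleukin-23, had 34 counts against 1 (48.8-fold, 8.19 to 1985), and Il17a, Il17c, Il17f, Il22 and Il23a had at most 2 counts in either library.

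NF-kB is a factor known to induce cytokine genes, and its part in these values was not tested. Of 16 genes for its subunits and inhibitors 3 were at least 2-fold higher and 0 lower (median 0.62): Tnip3 (4.62-fold, 2.86 to 7.74), Nfkbiz (2.53-fold, 2.18 to 2.95) and Nfkbie (2.51-fold, 2.08 to 3.04). The subunit Rela was level at 97.4 CPM in control and 96.5 CPM in PM10, and Tnfaip3, another inhibitor, was at 34.2 CPM in control and 60.1 CPM in PM10.

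Type 2 cytokines were barely counted, with Il4, Il5 and Il13 at 2, 1 and 2 counts in PM10 and 3, 1 and 0 in control. Of 13 measured genes of the type 2 list 4 were at least 2-fold higher and 0 lower (median 0.17), and 2 with a pseudocount of 5. Retnla, a secreted product of alternatively activated macrophages and epithelium, was at 23.7 CPM in control and 242 CPM in PM10, 10.2-fold (9.21 to 11.4) higher, and at 1857, 3846 and 1906 CPM in the other 3 groups. Clca1, a goblet cell protease, Muc5ac, a gel-forming mucin, and Chil3, a chitinase-like lectin, were 4.41-fold (2.85 to 7.02), 2.69-fold (2.00 to 3.64) and 2.85-fold (2.69 to 3.01) higher. In the other 3 groups Clca1 was at 313, 5154 and 1633 CPM, so the PM10 value of 7.12 CPM lay much nearer control (1.61 CPM). Arg1, another marker of alternative activation, was level at 2.54 CPM in control and 2.98 CPM in PM10, against 104 CPM in PM10/OVA. Slc26a4, the anion exchanger pendrin of airway epithelium, was at 1.04 CPM in control and 19.6 CPM in PM10, 18.9-fold (11.7 to 32.5) higher. The mucous cell genes Spdef, Agr2 and Muc5b did not reach 2-fold, at 1.27 in control and 1.82 CPM in PM10, 4.67 in control and 3.40 CPM in PM10 and 139.7 in control and 131 CPM in PM10. Fcgbp was 2.62-fold (2.08 to 3.34) lower, though not past the threshold with a pseudocount of 5.

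Macrophage genes were higher across several lists. These and the other lists share members, such as Atp6v0d2, Ctsb and Fcgr1, so their counts are not separate. Of 20 monocyte and recruited macrophage genes, 17 were at least 2-fold higher and 0 lower (median 1.65), and PM10 was the highest of the 5 libraries for 16. Ms4a7, Ms4a6d and Ms4a6c, membrane proteins of monocytes and macrophages, were 13.05-fold (9.27 to 18.9), 7.47-fold (6.38 to 8.78) and 5.83-fold (5.10 to 6.67) higher. Fcgr1, the high-affinity antibody receptor, was at 7.09 CPM in control and 47.3 CPM in PM10 and at 18.7, 11.4 and 8.41 CPM in the other 3 groups, 6.67-fold (5.48 to 8.17) above control. Its partner chain Fcer1g was 3.81-fold (3.39 to 4.30) higher, and the inhibitory receptor Fcgr2b 2.88-fold (2.51 to 3.32). Fcgr1 and Ly6i are also known as interferon-induced genes. Cd68 and Adgre1, general macrophage markers, were 3.80-fold (3.47 to 4.15) and 2.95-fold (2.66 to 3.27) higher. The summed level of the 20 genes was 951 CPM in control and 2211 CPM in PM10. The part of a larger number of macrophages in the complement, chemokine, receptor and lysosome values was not tested.

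Lipid-associated and lysosomal macrophage genes were above control for all 20 members, 13 by at least 2-fold (median 1.20). Mmp12, the macrophage elastase, was at 5.59 CPM in control and 132 CPM in PM10 and at 188, 383 and 214 CPM in the other 3 groups, 23.5-fold (19.2 to 29.2) above control. Gpnmb, a glycoprotein of lysosome-rich macrophages, was at 14.9 CPM in control and 201 CPM in PM10 and at 113, 85.0 and 118 CPM in the other 3, 13.5-fold (11.8 to 15.4) above control and highest in PM10. Slc7a11, the cystine importer, was 9.06-fold (7.01 to 11.9) higher, Trem2, a lipid receptor, 4.57-fold (3.53 to 5.99), and Lgals3, galectin-3, 3.29-fold (3.10 to 3.48). Of 17 cathepsin and lysosome genes 8 were at least 2-fold higher and 0 lower (median 0.80). Ctsk, a collagen-degrading protease, was the largest at 24.2 CPM in control and 239 CPM in PM10, 9.87-fold (8.91 to 11.0) higher, and Ctsd, the main aspartic protease, was at 717 CPM in control and 1815 CPM in PM10, 2.53-fold (2.47 to 2.59) higher.

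Resident alveolar macrophage genes were mixed: 7 of 16 were at least 2-fold higher and 1 lower (median 0.83). Marco, a scavenger receptor for particles, was at 2.02 CPM in control and 23.8 CPM in PM10, 11.8-fold (8.28 to 17.2) higher, and Atp6v0d2, a proton-pump subunit, at 43.6 CPM in control and 154 CPM in PM10. Pparg, the factor that sets alveolar macrophage identity, differed less, at 18.3 CPM in control and 24.0 CPM in PM10, and so did Mrc1 (156 in control and 238 CPM in PM10), Plet1 (68.6 in control and 101 CPM in PM10) and Ear1 (30.1 in control and 50.4 CPM in PM10). The lower member, Cidec, is a lipid droplet gene that fat cells share, 3.18-fold (2.68 to 3.79) lower.

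Receptors by which myeloid cells recognise microbes and particles were higher for 13 of 21 and lower for 0 (median 1.497). Clec4e and Clec4d, lectins that sense glycolipids and dead cells, were 12.8-fold (9.15 to 18.4) and 9.62-fold (7.17 to 13.1) higher. Clec7a, the beta-glucan receptor, was at 64.5 CPM in control and 512 CPM in PM10 and at 284, 403 and 215 CPM in the other 3 groups, highest in PM10 and 7.94-fold (7.45 to 8.47) above control. Msr1, a scavenger receptor, and Clec5a were 6.80-fold (5.70 to 8.15) and 6.07-fold (4.63 to 8.07) higher. Inflammasome and cell death genes had 7 of 13 higher and 0 lower, close to the threshold (median 1.02), and with a pseudocount of 5 only 1 was higher: the sensor Nlrp3 was 2.46-fold (1.85 to 3.31), Casp1 2.12-fold (1.76 to 2.57) and the necroptosis effector Mlkl 2.45-fold (1.94 to 3.10) higher, while Gsdmd, the pore-forming protein, was at 29.9 CPM in control and 40.1 CPM in PM10. Among arginine and nitric oxide enzymes Nos2, the inducible synthase, was at 8.42 CPM in control and 12.1 CPM in PM10, and Arg2 was 3.30-fold (2.58 to 4.24) higher. Gch1, which makes the cofactor of nitric oxide synthase, was 2.73-fold (2.27 to 3.29) higher. Irg1 had the largest difference of this list of 11, at 49.0 CPM in PM10 and 49.0, 1.04 and 0.925 CPM in the other 3 groups.

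Other leukocyte lists had fewer genes past 2-fold. Of 13 measured neutrophil genes 4 were at least 2-fold higher, or 2 with a pseudocount of 5, and 1, Ltf, lower (median 0.75). The calprotectin genes S100a8 and S100a9 were near level at 33.0 and 34.5 CPM and at 61.1 and 73.1 CPM in control and PM10 respectively, the neutrophil marker Retnlg was at 33.3 CPM in control and 25.2 CPM in PM10, and Csf3r, the G-CSF receptor, was at 25.4 CPM in control and 48.5 CPM in PM10. The members that were higher, Lcn2, Clec4d, Il1r2 and Mmp8, are expressed by other cells as well, Lcn2 by epithelium. Of 7 measured eosinophil genes 2 were higher and 0 lower (median -0.20). The granule genes Prg2 and Epx had 1 and 0 counts in PM10 and 2 and 0 in control. The higher members, Siglecf (2.35-fold, 2.01 to 2.75) and Cd300lf (3.97-fold, 3.27 to 4.84), are carried by alveolar macrophages or other myeloid cells too. Of 8 measured mast cell genes 0 were higher and 2 lower, the proteases Tpsb2 (3.29-fold, 1.87 to 6.19) and Cma1 (2.44-fold, 1.63 to 3.73), or 0 with a pseudocount of 5, on 15 and 32 counts in PM10.

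Among T cell genes the receptor chains Cd3d and Cd3e were level (10.7 in control and 10.7 CPM in PM10 and 7.90 in control and 8.61 CPM in PM10). Of 18 measured genes 6 were at least 2-fold higher and 0 lower (median 0.62): the co-stimulatory receptors Tnfrsf9 (13.6-fold, 7.97 to 24.9), Tnfrsf4 (6.70-fold, 2.72 to 19.8) and Icos (3.19-fold, 2.38 to 4.31), the checkpoint receptors Ctla4 (4.83-fold, 2.97 to 8.17) and Pdcd1 (6.14-fold, 3.14 to 13.1), and the interleukin-2 receptor chain Il2ra (3.94-fold, 2.76 to 5.73). With a pseudocount of 5 only 1 of the 6 was left. A filter at a mean of 5 CPM, which removes low genes without changing ratios, kept 3 of the 6. Tnfrsf4 had the fewest counts of them in PM10, 28, and Icos the most, 151. Foxp3, of regulatory T cells, had 48 counts against 28 and was just short of the rule. No cytotoxic or NK cell gene reached 2-fold (12 measured, median 0.02). B cell genes were slightly below control for 8 of 10 (median -0.41), with Ms4a1, a surface protein of B cells, at 36.2 CPM in control and 27.4 CPM in PM10. Among plasma cell genes Pigr, the epithelial receptor that exports antibodies, was 3.27-fold (3.12 to 3.44) higher and Jchain, a plasma cell product, was level at 49.6 CPM in control and 44.5 CPM in PM10.

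Cell division genes were higher as a block. Of 22 mitosis genes 21 were at least 2-fold higher (median 1.64), or 12 with a pseudocount of 5. A filter at a mean of 5 CPM, which removes low genes without changing ratios, kept 13 of the 21. All 22 were highest in PM10 among the 5 libraries. The gene short of 2-fold, Bub1, was at 2.54 CPM in control and 4.72 CPM in PM10. Mki67, the nuclear protein of cycling cells, was at 25.0 CPM in control and 108 CPM in PM10 and at 49.7, 49.7 and 32.1 CPM in the other 3 groups, 4.34-fold (3.89 to 4.85) above control. Top2a, which untangles chromosomes, was at 15.7 CPM in control and 70.8 CPM in PM10 and at 29.3, 32.1 and 17.7 CPM in the other 3, 4.52-fold (3.94 to 5.20) above control. In both the PM10 library stood above the other 4. The list medians against the same control library were 0.62, 0.83 and 0.24 in the 3 groups with OVA. Birc5, of the chromosomal passenger complex, was 6.68-fold (4.09 to 11.4) higher. The kinetochore genes Cenpf and Cenpe were 4.63-fold (3.60 to 6.00) and 4.55-fold (3.47 to 6.03) higher, and Tpx2, a spindle assembly factor, 4.57-fold (3.49 to 6.06). The mitotic cyclin Ccnb1 was 4.99-fold (3.38 to 7.53) higher and the anaphase activator Cdc20 2.23-fold (1.68 to 2.99).

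DNA replication genes were above control for all 23 members, 9 by at least 2-fold, or 5 with a pseudocount of 5 (median 0.96), with PM10 the highest of the 5 libraries for 18. Uhrf1, which maintains DNA methylation at replication forks, was 4.78-fold (3.69 to 6.27) higher, Mcm10 7.30-fold (3.89 to 14.9), Tk1, thymidine kinase, 3.94-fold (2.91 to 5.41) and Rrm2, of ribonucleotide reductase, 3.61-fold (2.76 to 4.76). Among inhibitors of the cycle and genes of the DNA damage response 0 of 14 measured genes were 2-fold higher (median 0.13), where 3.70% of all measured genes were. With a pseudocount of 0.25, or with factors from PM10 and control alone, 1 was. On the log2(CPM + 1) scale Cdkn1a was just under 2-fold, at 30.2 in control and 61.3 CPM in PM10. The p53 targets Mdm2 and Ccng1 were at 66.9 in control and 73.3 CPM in PM10 and at 186 in control and 149.7 CPM in PM10. Bulk RNA does not say which cells were dividing.

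Epithelial genes differed by region. Among 14 alveolar type 2 genes Sftpd, a collectin of host defence, was at 523 CPM in control and 1168 CPM in PM10, 2.23-fold (2.17 to 2.29) higher, while Sftpb and Sftpc were level (2412 in control and 2409 CPM in PM10 and 12728 in control and 12987 CPM in PM10). Fasn, fatty acid synthase, was 2.19-fold (2.12 to 2.26) lower and Scd1, which desaturates fatty acids, 1.88-fold (1.84 to 1.93). Both are strongly expressed in fat as well, where genes also differed, and the part of fat in them was not tested. No alveolar type 1 gene reached 2-fold (11 measured, median -0.19).

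Club cell genes, of the secretory cells of the small airways, were below control for 13 of 14, 4 of them by at least 2-fold (median -0.71). Cyp2a5, a detoxifying cytochrome P450, was at 297 CPM in control and 35.5 CPM in PM10 and at 33.2, 10.6 and 76.7 CPM in the other 3 groups, 8.36-fold (7.58 to 9.25) below control. Cyp2f2, the P450 that defines these cells, was at 2704 CPM in control and 1346 CPM in PM10, 2.01-fold (1.97 to 2.04) lower, and Scgb3a1 was 2.17-fold (2.07 to 2.29) lower. Scgb1a1, the main secretoglobin, was at 20963 CPM in control and 14277 CPM in PM10 and at 19289, 20501 and 25101 CPM in the other 3, lowest in PM10 and 1.47-fold (1.46 to 1.48) below control. Chad, 2.76-fold (2.38 to 3.20) lower, is also a cartilage gene. Ciliated cell genes were below control for all 19 members by small amounts (median -0.44, none at 2-fold), except that Spag17 was level and turned just positive with factors from the PM10 and control libraries alone. The axonemal dynein Dnah5 was at 83.3 CPM in control and 45.8 CPM in PM10, and Foxj1, the master factor of cilia, was near level at 63.2 CPM in control and 59.8 CPM in PM10.

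Genes of large airways, glands and basal cells had 5 of 12 measured members at least 2-fold lower and 2 higher (median -0.77). Bpifa1, a secreted antibacterial protein of nose and large airways, was at 1264 CPM in control and 74.5 CPM in PM10 and at 88.8, 60.1 and 464 CPM in the other 3 groups, 16.97-fold (15.9 to 18.2) below control. The basal cell keratins Krt15 and Krt5 were at 19.6 and 1.08 CPM and at 6.57 and 1.16 CPM in control and PM10 respectively, 18.2-fold (10.5 to 34.5) and 5.67-fold (3.24 to 10.7) lower. Ltf, lactoferrin, which glands and neutrophils make, was 4.41-fold (4.14 to 4.70) lower, and Bpifb1 2.32-fold (2.14 to 2.52). The higher members were Lyz2, the lysozyme of macrophages and type 2 cells (2862 in control and 6296 CPM in PM10), and Gp2 on 32 counts against 12. The summed level of the 12 airway genes went the other way, 5334 CPM in control and 7113 CPM in PM10, since Lyz2 makes up most of it. The list medians against the same control library were -0.18, 0.14 and 0.75 in the 3 groups with OVA. The part of large airway tissue in the lower genes was not tested.

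Smooth muscle genes were below control for all 12 members, 3 by at least 2-fold (median -0.83). Acta2 and Myh11, contractile proteins, were at 314 and 190.4 CPM and at 529 and 272 CPM in control and PM10 respectively, and Cnn1, calponin, and Sost were 2.26-fold (2.05 to 2.49) and 3.78-fold (1.67 to 10.03) lower. Pln, 5.50-fold (4.76 to 6.37) lower, is shared with heart muscle. The part of heart muscle and large airway in these values was not tested. No endothelial gene reached 2-fold (20 measured, median -0.14). The leukocyte adhesion molecule Vcam1 was at 61.7 CPM in control and 109 CPM in PM10 and Icam1 at 318 CPM in control and 422 CPM in PM10, and Edn1, endothelin, was 1.58-fold (1.38 to 1.82) lower. No fibroblast gene reached 2-fold either (14 measured, median -0.13), with the alveolar fibroblast marker Tcf21 at 87.2 CPM in control and 84.2 CPM in PM10.

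The series title names fibrosis, so matrix genes are given next, against the 3.70% of all measured genes that were higher and the 2.04% that were lower. None of the 20 genes on the list of fibrillar and basement membrane collagens reached 2-fold (median 0.18). Col2a1 and Col10a1, which were lower, are not on that list and are given with cartilage. Col3a1 and Col1a1, the fibrillar collagens of scar, were at 648 and 1248 CPM and at 292 and 495 CPM in control and PM10 respectively, 1.93-fold (1.88 to 1.97) and 1.70-fold (1.63 to 1.76) higher. Both were highest of the 5 libraries in PM10, where the other 3 groups held 998, 886 and 642 CPM of Col3a1. Among 24 other matrix genes 1 was higher and 3 were lower, or 0 and 1 with a pseudocount of 5. Lox, which cross-links collagen and elastin, was 2.10-fold (1.91 to 2.31) higher, and elastin (Eln) was at 152 CPM in control and 303 CPM in PM10. Thbs2, Lum and Fbln2 were 2.98-fold (2.25 to 4.003), 2.29-fold (2.00 to 2.61) and 2.21-fold (1.91 to 2.57) lower. Matrix metalloproteinases and inhibitors had 5 of 20 higher and 0 lower (median 0.23). Timp1, a metalloproteinase inhibitor induced by inflammation, was at 2.36 CPM in control and 32.6 CPM in PM10 and at 108, 8.14 and 8.16 CPM in the other 3, 13.8-fold (9.99 to 19.5) above control, and Mmp19 was 3.00-fold (2.60 to 3.46) higher. Of the coagulation genes 2 of 15 were higher, F7 (2.87-fold, 2.48 to 3.33) and F10 (2.87-fold, 2.31 to 3.59), clotting factors that macrophages can also express. In the TGF-beta list 2 of 23 were higher, Inhba, which encodes an activin chain (6.39-fold, 4.43 to 9.44), and Tgfbi, a matrix target (2.63-fold, 2.45 to 2.81), and 0 lower (median -0.03). Tgfb1 itself was at 90.3 CPM in control and 110.3 CPM in PM10, and the target Ctgf at 259 CPM in control and 328 CPM in PM10.

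Genes known to respond to combustion products, oxidants and metals are given against the 3.70% of all measured genes that were higher. Of 8 measured genes of the aryl hydrocarbon receptor, the sensor of combustion products, 0 were at least 2-fold higher and 1 was lower, or 0 with a pseudocount of 5. Cyp1a1, its classic target, was at 13.03 CPM in control and 5.88 CPM in PM10, 2.22-fold (1.69 to 2.94) lower. Cyp1b1 was at 12.2 CPM in control and 18.1 CPM in PM10 and Tiparp at 49.5 CPM in control and 70.5 CPM in PM10. Targets of NRF2, the factor of the antioxidant response, had 2 of 17 higher and 0 lower (median 0.09). The higher ones were Slc7a11 and Hmox1, haem oxygenase (2.79-fold, 2.49 to 3.12), which macrophages also express, while Nqo1 and Gclm were at 7.15 and 7.29 CPM and at 37.9 and 33.5 CPM in control and PM10 respectively. Of the metal genes, Mt1 and Mt2 were at 29.5 and 34.7 CPM and at 10.3 and 20.1 CPM in control and PM10 respectively, the ferritin chain Fth1 was 1.71-fold (1.69 to 1.74) higher, and Slc11a1, the phagosomal metal pump, 4.13-fold (3.37 to 5.09). In all, 4 of 17 of these metal genes were higher and 1 lower (median 0.49). The lower one was Hamp, hepcidin, with 322 counts in control and 43 in PM10, and heart muscle also expresses it. Heat-shock chaperones and endoplasmic reticulum stress genes had no member at 2-fold (13 and 16 measured, medians 0.36 and 0.21).

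The lowest 15 differences were mostly genes of heart, fat, cartilage and large airway. Cyp26b1, which degrades retinoic acid (chromosome 6, 84571414 to 84593908), belongs to none of those lists. It was at 364 CPM in control and 15.2 CPM in PM10 and at 40.4, 138 and 24.6 CPM in the other 3 groups, 23.9-fold (20.6 to 27.8) below control. Doc2g was at 18.7 CPM in control and 1.66 CPM in PM10 and at 1.14, 1.04 and 1.18 CPM in the other 3, 11.3-fold (7.203 to 18.8) below control. For both genes control was the high value and the 4 particle-treated libraries lay well below it, with PM10/OVA/CPX nearest for Cyp26b1.

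Heart muscle genes, which can reach a lung sample with the pulmonary veins or adhering atrium, were at least 2-fold lower for 23 of 24 measured members and higher for 0 (median -1.91). Nppa, the atrial natriuretic hormone, had 10316 counts in control and 56 in PM10, 128-fold (98.7 to 169.9) lower. Nppb had 230 and 1 counts (160.1-fold, 28.4 to 6350.2). Bmp10, an atrial growth factor, had 154 and 0, so it was lower by at least 35.7-fold if 3 counts are set for the 0 (limit by the exact interval 28.7). Mb, myoglobin, was at 179.5 CPM in control and 15.6 CPM in PM10 and at 7.70, 8.14 and 18.9 CPM in the other 3 groups. Myh6, atrial myosin, was still at 304 CPM in PM10, against 1182 CPM in control.

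Fat cell genes were lower for 16 of 18 and higher for 0 (median -2.32). Adipoq, adiponectin, was at 36.04 CPM in control and 3.98 CPM in PM10 and at 2.46, 2.63 and 8.83 CPM in the other 3 groups, 9.06-fold (6.75 to 12.4) below control. Thrsp and Car3, of lipid synthesis and fat or muscle metabolism, were 14.9-fold (12.1 to 18.6) and 8.49-fold (7.62 to 9.48) lower, Fabp4 7.54-fold (6.67 to 8.56) and Retn 9.46-fold (6.13 to 15.3). Ucp1, of brown fat, had 93 counts in control and 0 in PM10, at least 21.6-fold lower by the same rule (limit 17.2). Cartilage genes were lower for 9 of 11 measured and higher for 0 (median -1.48). A filter at a mean of 5 CPM, which removes low genes without changing ratios, kept 2 of these 9. Acan, the cartilage proteoglycan, was at 35.6 CPM in control and 3.31 CPM in PM10, 10.8-fold (7.81 to 15.2) lower, and Col2a1 at 19.2 CPM in control and 1.91 CPM in PM10, 10.1-fold (6.60 to 16.1) lower. Col10a1, of hypertrophic cartilage and bone, was at 69.9 CPM in control and 4.89 CPM in PM10, 14.3-fold (11.0 to 18.9) lower. The groups with PM10 and OVA were lower than control for these genes too, with list medians of -3.16, -3.35 and -2.08 for heart, -2.37, -2.59 and -1.39 for fat and -2.56, -2.48 and -1.91 for cartilage, all from the same control library. How the lungs were trimmed is not stated.

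**Figure D4:**
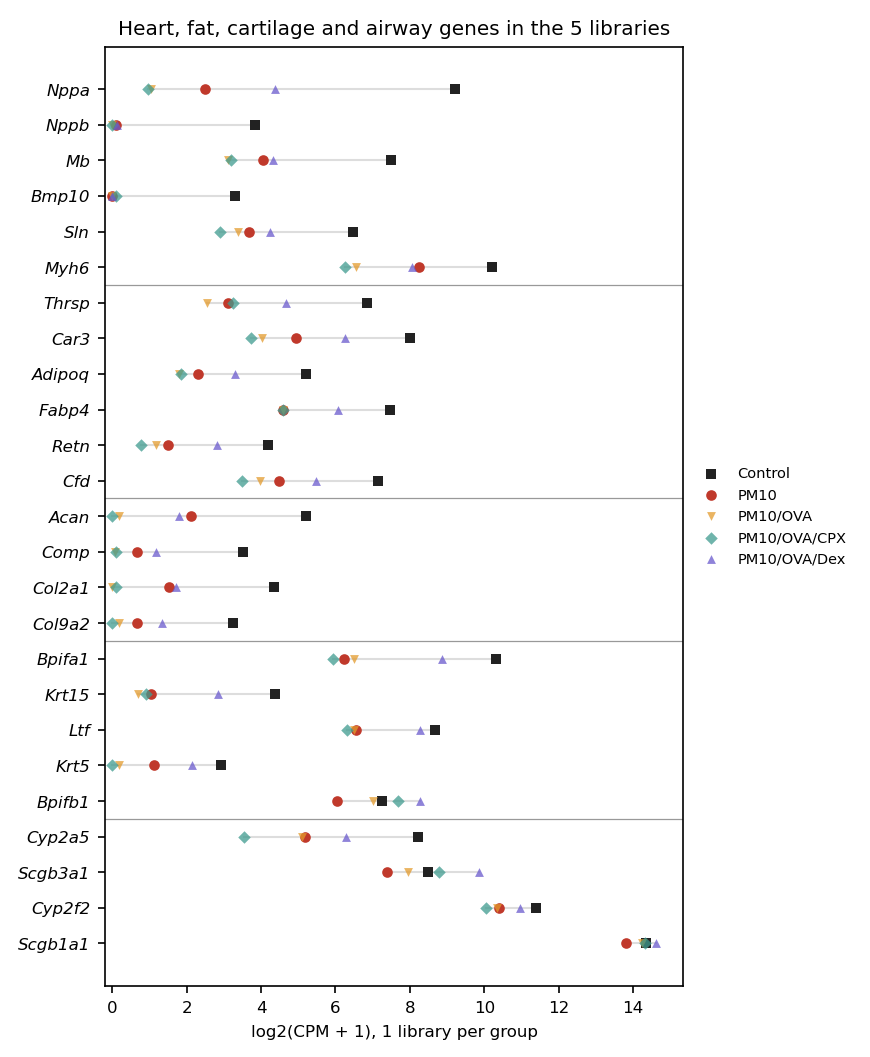
Levels of heart muscle (Nppa to Myh6), fat (Thrsp to Cfd), cartilage (Acan to Col9a2), large airway (Bpifa1 to Bpifb1) and club cell genes (Cyp2a5 to Scgb1a1) as log2(CPM + 1) in each of the 5 libraries, 1 point per library. Control (black square) is the rightmost point for every heart, fat and cartilage gene shown, while for Bpifb1, Scgb3a1 and Scgb1a1 the rightmost point is PM10/OVA/Dex.

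**Figure D5:**
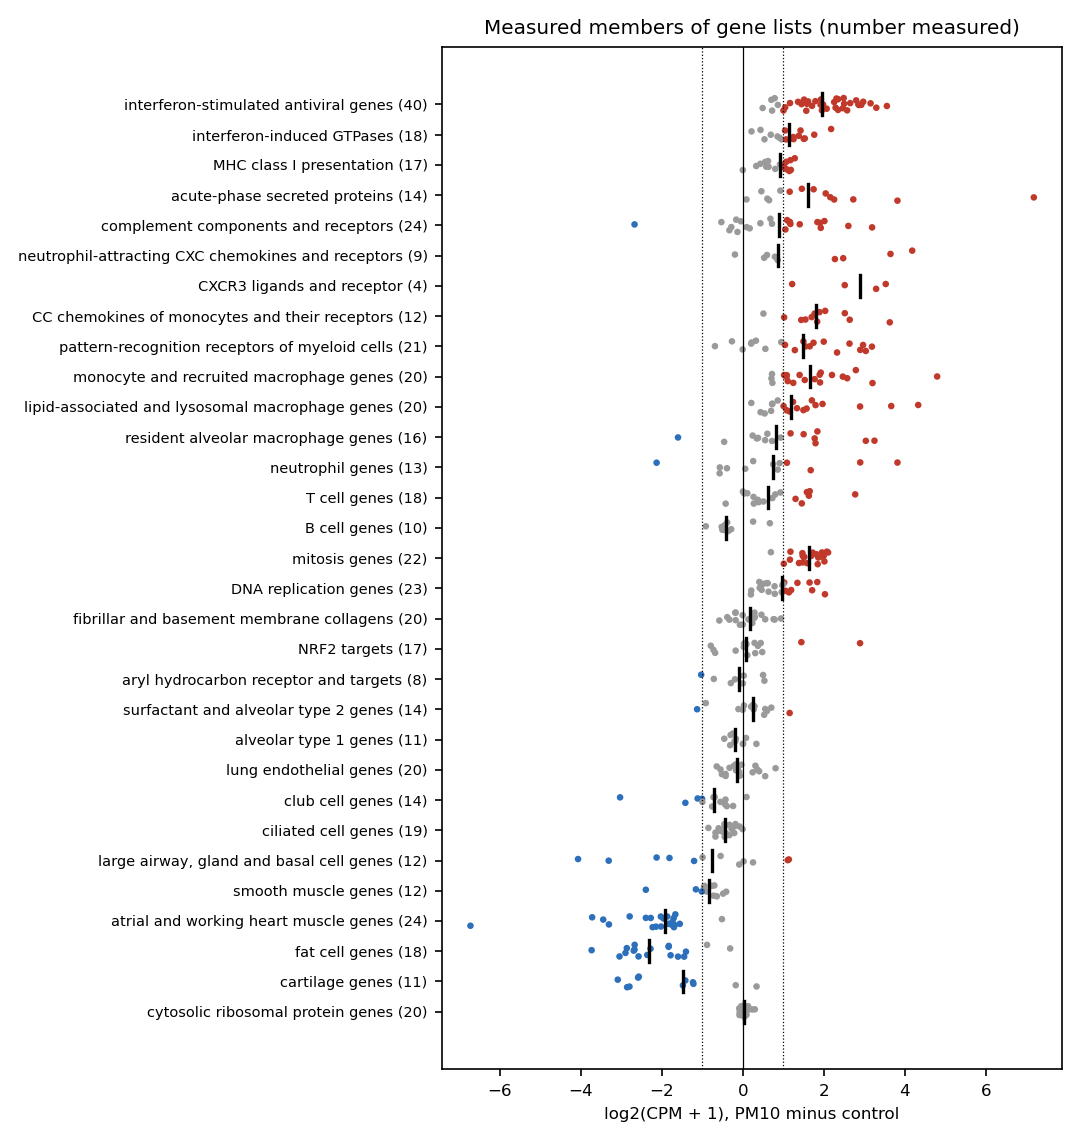
Difference of each measured list member between PM10 and control on log2(CPM + 1), 1 point per gene, with the number of measured members after each list's name. Black bars are list medians, red and blue points are at least 2-fold higher and lower, and dotted lines mark 2-fold. The antiviral list lies wholly above 0, the heart list wholly below it, the ciliated list below it with Spag17 level, and the ribosomal protein genes cluster at 0.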

How the data were processed

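Per the labels' protocols, Trizol was used on whole lung and a directional kit on 1.3 ug of RNA. Reads were aligned with TopHat to mm10, per the submitters' processing notes. Its version, the counting tool, the annotation and the use of strand are not stated there. The authors deposited raw counts per gene symbol for each library. From these, edgeR 4.0.16 (R 4.3.3) computed trimmed-mean factors across the 5 libraries and CPM, and genes averaging at least 1 CPM were kept. The PM10 and control libraries were compared on log2(CPM + 1), with a 2-fold threshold and exact binomial 95% intervals on the ratio of counts (Python 3.11.15). These cover counting error only, and reads without molecular identifiers are not independent molecules. No test was possible with 1 library per group. Positions are from GENCODE on GRCm38. The scripts were tested on simulated data. The members and gene lists were chosen with earlier results of these data known. Named genes are the 15 largest differences on each side (leaving out predicted models, receptor segments and small RNAs), the 6 largest of each list, all members of lists of up to 14, ligand and receptor pairs, and members within 2-fold given as values. Isg15, Ifit3, Cdc20 and Ccnb1 were added after their promoter matches or values were seen, as were other members given as values. Alternatives covered the pseudocount, filter and scaling (DESeq2 1.42.0 size factors among them). Results for a few genes of these lists are not reported here.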

Additional observations from a re-analysis of the deposited data

How the results depend on the processing

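The count of higher genes ran from 304 to 636 and that of lower genes from 141 to 403 over the alternatives. With a pseudocount of 5 there were 304 higher and 141 lower genes, and with a mean of at least 5 CPM there were 146 lower, since both leave fewer low genes past 2-fold. Requiring in addition a lower counting limit above 2, an alternative chosen after seeing the data, gave 405 and 223. Without the genes of bordering tissues 241 lower genes were left. Over 1332 recomputed list counts 46 moved by over 1.5 times, or to or from 0, 23 of them with a pseudocount of 5. Many of the rest were counts of 0 that stayed 0 or came from scalings that hardly shift any gene. The share that moved therefore does not measure how firm the other counts are. Gene folds were recomputed under the 4 other scalings alone, which shift all genes alike by -0.03 to 0.01 on the log2 scale and so leave large differences in place by construction. The sign differed for 38 of 996 genes, all level to within 0.03, and 23 lay outside their counting interval when scaled by library totals. No paired analysis was possible because each group has 1 library, and no library could be left out of a group for the same reason. Depth limits genes under about 0.173 CPM in control and 0.249 CPM in PM10, the level of 3 counts. Counting error is the only error the intervals hold, and the spread between mice was not measured.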

Other observations

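Lists outside the systems described above held few genes past 2-fold. Over all measured genes 3.70% were higher and 2.04% lower, so 1 gene in a list of this size is near that share. Of 15 cholesterol genes Ch25h, which makes the oxysterol that restrains viral entry and guides B cells, was at 2.88 CPM in control and 21.9 CPM in PM10 and at 36.8, 20.9 and 13.5 CPM in the 3 groups with OVA, 7.59-fold (5.59 to 10.5) above control. The other 14 were within 2-fold. Of 15 eicosanoid genes 2 were higher, or 1 with a pseudocount of 5, and 0 lower. The 2 were Tbxas1, thromboxane synthase of macrophages and platelets (2.60-fold, 2.20 to 3.09), and Ptgs2, the inducible cyclooxygenase (2.22-fold, 1.92 to 2.56). Of 20 glycolysis genes only Hk3, the hexokinase of myeloid cells, reached 2-fold (2.60-fold, 2.18 to 3.11).

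Clock genes can differ with the hour at which lungs are taken, which is not given in the sources used here. Nfil3 was higher (2.69-fold, 1.97 to 3.71), though not with a pseudocount of 5, and the other 17 of 18 were within 2-fold. The lists of this paragraph stand against the same 3.70% higher and 2.04% lower over all measured genes. Dbp, a clock output gene, was at 164 CPM in control and 99.0 CPM in PM10, and Per1 and Per2, core repressors of the clock, at 154 and 212 CPM and at 52.4 and 44.2 CPM in control and PM10 respectively. Glucocorticoid targets, which also respond to stress, had 1 of 14 higher, Lcn2, with Fkbp5 at 14.9 CPM in control and 24.9 CPM in PM10 and Zbtb16 at 25.9 CPM in control and 14.99 CPM in PM10. Of 19 immediate-early genes, which handling can induce, 0 were higher and 1, Fosb, was lower. Fosb had 248 counts in control and 80 in PM10, before scaling for the larger control library, and lay just past the threshold. With a pseudocount of 5, or with factors from PM10 and control alone, 0 were lower. Respiratory chain genes lower by 2-fold were Cox7a1 (3.64-fold, 2.87 to 4.67) and Cox6a2 (3.27-fold, 2.75 to 3.90), the muscle forms of 2 subunits, among 19. The part of heart muscle in these values was not tested. Ribosomal protein genes were level (20 measured, median 0.03, none at 2-fold), as were housekeeping genes except Gusb, a lysosomal enzyme, which was 2.20-fold (2.00 to 2.42) higher (15 measured, median 0.12).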
